A study of Mus musculus with 24 samples.

Results

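The enzymes that remove superoxide and hydrogen peroxide directly were followed in mouse liver as 9 genes: the glutathione peroxidases Gpx1, Gpx2, Gpx3, Gpx4 and Gpx7, catalase (Cat) and the superoxide dismutases Sod1, Sod2 and Sod3. All probe sets annotated to 1 of these genes alone were taken, which gave 19 of the 45037 probe sets tested and 9 of 18193 genes with such a probe set. The rule used their names alone, and the set was chosen with earlier results of these data known. A probe set is a group of short oligonucleotides on the array that report 1 transcript, and its signal is given on the log2 scale.

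The livers came from 24 male C57BL6/J mice, 1 array per mouse and 8 mice per group, that were 8 weeks old at the start. Every mouse was kept on a western diet, a high-fat diet with 6% sucrose in the drinking water. Each was injected once a week for 7 weeks via the tail vein with 1 mg per kg of a chemically modified siRNA in lipid nanoparticles, which carry the oligonucleotides mainly to hepatocytes. The groups received siKeap1-1 or siKeap1-2, which target different stretches of the Keap1 mRNA, or the scrambled siControl. No mouse on a normal diet and none without siRNA was part of these arrays. Each group held fed and fasted mice in equal number according to the methods, but the labels do not tell them apart, so that feeding entered no fit.

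Superoxide dismutases turn superoxide into hydrogen peroxide, and catalase and the glutathione peroxidases turn hydrogen peroxide into water. For most of the glutathione peroxidases, glutathione is the source of electrons. Keap1 holds the transcription factor Nrf2 for degradation, and Nrf2 binds antioxidant response elements in the promoters of many protective genes, so that the comparison asks which of these enzymes change their mRNA in liver when Keap1 is kept low for weeks. Gpx1 to Gpx4 of the mouse carry selenocysteine in the active site, whereas Gpx7 carries cysteine and resides in the endoplasmic reticulum.

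Gpx2 was the member with the largest difference. It rose 7.77-fold with siKeap1-1 and 10.7-fold with siKeap1-2. Gpx4 rose 1.20-fold to 1.52-fold over its 2 probe sets and both siRNAs, Gpx7 rose 1.8-fold with siKeap1-2, and 1 of the 2 probe sets of Cat rose 1.12-fold with siKeap1-1. The calls of Gpx7 and Cat, and those of Gpx4 with siKeap1-2, were lost in some other settings, as given with each gene. None of the probe sets of Gpx1, Gpx3, Sod1, Sod2 or Sod3 passed the test against siControl with either siRNA.

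The stretches before the transcription starts of the 3 peroxidase genes called by their brightest probe set are shown because antioxidant response elements were searched in them. They come from RefSeq on GRCm38.p6, read in the direction of the gene, with the 25 bases from the annotated start in capitals. The Gpx2 stretch lies at chr12:76795530-76795804 on the minus strand, that of Gpx4 at chr10:80053315-80053589 on the plus strand and that of Gpx7 at chr4:108406689-108406963 on the minus strand. RefSeq gives 4 starts for Gpx4, of which this is the second from the upstream end.
Gpx2: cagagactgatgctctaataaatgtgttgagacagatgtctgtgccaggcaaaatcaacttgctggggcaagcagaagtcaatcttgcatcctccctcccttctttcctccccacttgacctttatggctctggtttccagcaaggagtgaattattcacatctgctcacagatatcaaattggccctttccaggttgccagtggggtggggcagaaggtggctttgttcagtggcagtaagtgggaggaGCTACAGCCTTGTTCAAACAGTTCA
Gpx4: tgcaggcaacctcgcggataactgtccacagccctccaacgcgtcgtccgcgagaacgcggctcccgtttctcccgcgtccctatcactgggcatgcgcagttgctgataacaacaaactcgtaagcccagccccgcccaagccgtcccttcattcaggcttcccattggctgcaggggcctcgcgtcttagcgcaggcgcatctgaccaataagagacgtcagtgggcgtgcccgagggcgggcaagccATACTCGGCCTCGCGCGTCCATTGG
Gpx7: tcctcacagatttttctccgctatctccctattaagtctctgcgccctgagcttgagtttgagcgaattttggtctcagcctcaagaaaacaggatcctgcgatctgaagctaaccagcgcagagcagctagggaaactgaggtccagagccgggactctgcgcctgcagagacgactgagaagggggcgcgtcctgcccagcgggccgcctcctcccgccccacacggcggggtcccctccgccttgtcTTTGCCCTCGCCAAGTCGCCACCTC

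The core of the antioxidant response element was written as TGACNNNGC and a related form as TGANTCAGC, and both were searched on both strands of 300-base windows reaching from 250 bases before to 50 bases after each start. A match of the first can overlap a match of the second. Windows were at hand for 8 of the 9 genes, Sod3 being the exception, and numbered 11 because of the 4 starts of Gpx4. TGACNNNGC was found in 1 of the 11, that of Sod1, and in 12.4% of the 32851 windows of all genes. TGANTCAGC was found in 0 of the 11 and in 1.19% of all windows. The letters searched are therefore not in the windows of Gpx2, Gpx4 and Gpx7, which says nothing about Nrf2 binding there or farther away. The match of Sod1 is shown in capitals with 10 bases on either side. It lies on the minus strand, where it reads TGACCACGC, and its leftmost base is at position -56 from the start.
Sod1: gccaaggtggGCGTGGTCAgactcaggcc

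Keap1 was examined first, since it is the target of both siRNAs. On probe set 1450746_at the signal was 9.63 ± 0.28 (mean ± SD, n = 8, log2) with siControl, 7.50 ± 0.22 with siKeap1-1 and 8.26 ± 0.21 with siKeap1-2. The mRNA fell by 2.13 on the log2 scale with siKeap1-1 (adjusted p = 2.28e-12, limma) and fell by 1.36 with siKeap1-2 (adjusted p = 1.89e-08, limma). No treated array reached the lowest control, and the exact permutation test over mice gave p = 0.0001554 for each (two-sided), the smallest that 12870 splits can give. The knockdown was deeper with siKeap1-1, which lay -0.76 from siKeap1-2 (adjusted p = 0.0022). On the dimmer probe set 1450747_at it fell by 0.42 and by 0.44 (adjusted p = 0.0262 and 0.026). These calls were lost with 18S ribosomal RNA as a covariate (adjusted p = 0.197 and 0.325), against siControl replicates 1 to 3 alone (adjusted p = 0.13 and 0.209) and in 5 and 2 of 24 fits that left out 1 array, and the first also against replicates 4 to 8 alone (adjusted p = 0.0647) and with only the groups compared in the fit (adjusted p = 0.0612). The difference stayed between -0.49 and -0.36 throughout.

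Across the arrays of a group the correlation over all probe sets was at least 0.9885. The share of all tested probe sets called at an adjusted p under 0.05 was 8.99% for siKeap1-1, 6.1% for siKeap1-2 and 0.162% between the siRNAs. The 5 measured hepatocyte markers were bright on every array (mean 14.52 to 14.68) and none was called. A control probe set for 18S ribosomal RNA set part of the siControl arrays apart: replicates 4 to 8 read 8.86 to 9.54, replicates 1 to 3 read 10.34 to 10.77, and all siKeap1 arrays read between 10.17 and 11.43. Where a member lost or gained a call once the 18S signal entered the fit, those values are given beside it. The same holds where only 1 of these parts of siControl was kept, which leaves 3 or 5 control arrays. The 18S mean was higher than in siControl by 1.23 with siKeap1-1 (p = 0.004351, exact permutation test) and by 1.18 with siKeap1-2 (p = 0.001554). As a covariate it is therefore confounded in part with the siRNA. A call lost in these settings cannot be told apart from this overlap or from the smaller number of controls.

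Of the 19 member probe sets, 4 were higher and 0 lower with siKeap1-1, where 4.51% of all probe sets were higher and 4.48% lower. With siKeap1-2, 4 were higher and 0 lower, beside 3.15% higher and 2.96% lower among all. Most members are bright, and the share called is larger among bright probe sets. With the probe sets below the median signal left out, 4 members were again higher in each comparison. Beside them, 9.19% of the 22519 probe sets kept were higher with siKeap1-1 and 6.42% with siKeap1-2. By the brightest probe set of each gene, 2 of 9 genes were higher with siKeap1-1 (Gpx2 and Gpx4) and 3 of 9 with siKeap1-2 (Gpx2, Gpx4 and Gpx7), beside 4.82% and 2.85% of all genes. The median difference from siControl was 0.07 and 0.04 over the 19 probe sets and 0.02 and 0.00 over all probe sets, so that most members lay close to the bulk of the array. At an unadjusted p under 0.05, 6 of the 19 passed in each comparison, beside 23% of all probe sets with siKeap1-1 and 20.5% with siKeap1-2. Of these 6, 5 were higher with siKeap1-1 and all 6 with siKeap1-2. Among all probe sets that passed, 5447 of 10377 and 4481 of 9227 were higher. A fold over 2 with an unadjusted p under 0.01 was met by 1 member probe set in each comparison, that of Gpx2, beside 0.617% and 0.557% of all. With the covariate for 18S, the count with siKeap1-2 at an adjusted p under 0.05 was 1 probe set and 1 gene, both Gpx2, beside 0.673% of all probe sets.

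**Figure D1:**
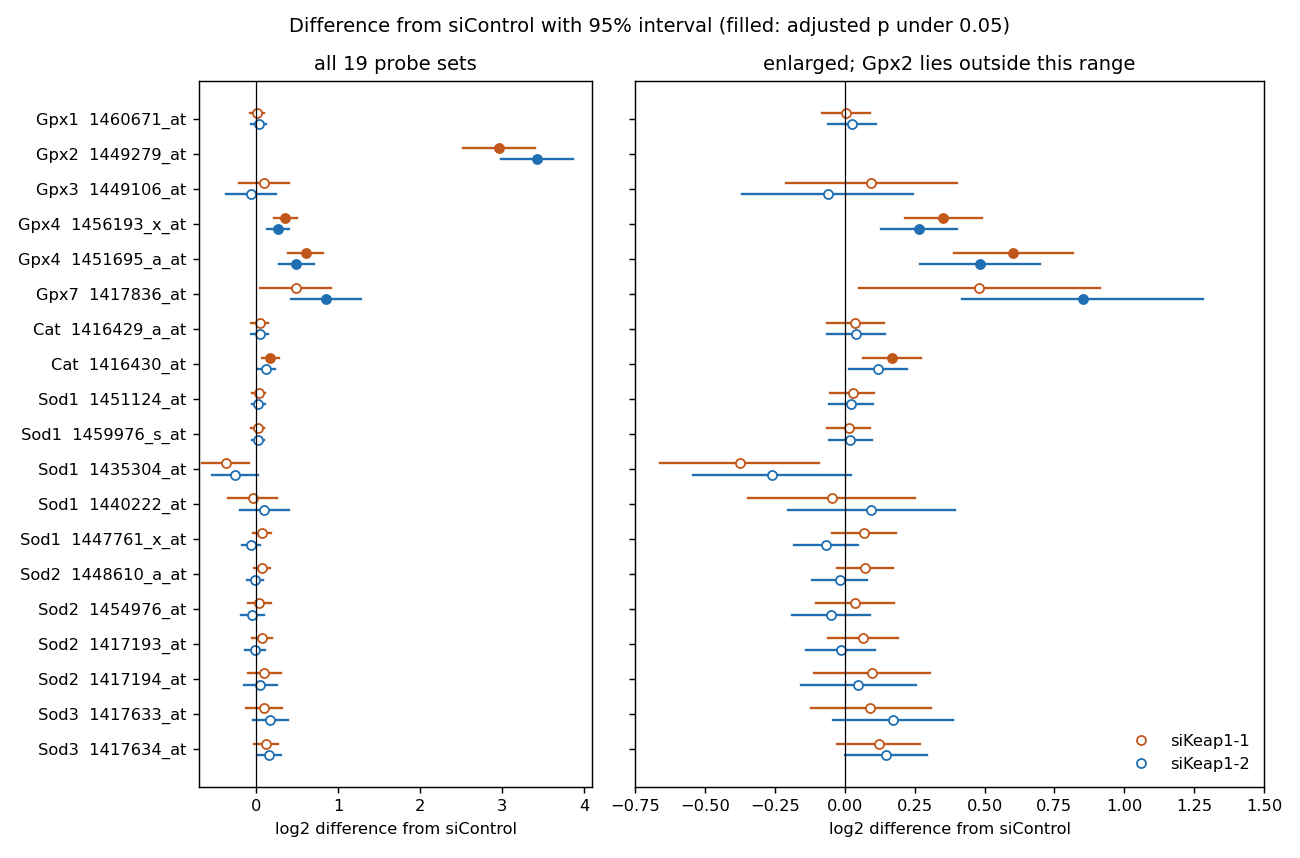
Difference of each of the 19 probe sets from siControl (log2, horizontal axis) with its 95% interval from limma, siKeap1-1 in orange and siKeap1-2 in blue, with filled points for an adjusted p under 0.05; the right panel leaves out Gpx2 and enlarges the rest. Gpx2 stands at 2.96 and 3.42, the Gpx4 and Gpx7 points lie between 0.27 and 0.85, and the points of Gpx1, Sod2 and the bright Sod1 probe sets lie between -0.05 and 0.10.

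Gpx2 is the peroxidase best known from the epithelium of the gut. Its only probe set, 1449279_at, reads a gene on chromosome 12 (76792335 to 76795554). With siControl its signal ran from 4.80 over a median of 5.23 to 5.90. With siKeap1-1 it ran from 7.30 over 8.23 to 9.14, and with siKeap1-2 from 8.03 over 8.76 to 9.36. All 8 livers of each siKeap1 group therefore lay above the highest control. In siControl the probe set was dimmer than the median of 5.87 over all probe sets, so that the fold change rests on a dim reference. Probe sets whose treated arrays all lay above the controls made up 0.844% of all with siKeap1-1 and 0.777% with siKeap1-2. The difference from siControl was 2.96 (standard error 0.21, adjusted p = 6.4e-10) with siKeap1-1 and 3.42 (adjusted p = 6.28e-11) with siKeap1-2.

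With siKeap1-2, which lowered Keap1 less, Gpx2 was not lower than with siKeap1-1. Its mean was 8.24 ± 0.52 with siKeap1-1 and 8.70 ± 0.45 with siKeap1-2 (SD, n = 8), a difference of -0.46 (95% interval -0.90 to -0.02, adjusted p = 0.506 in limma) that passed an unadjusted p of 0.05 and not the adjusted threshold. The ranges of both groups overlapped. Against siControl the rise of Gpx2 passed the threshold under each of 12 other settings and in each of 24 fits that left out 1 array. It lay between 2.83 and 3.17 with siKeap1-1, and the corresponding range for siKeap1-2 was 3.32 to 3.62.

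**Figure D2:**
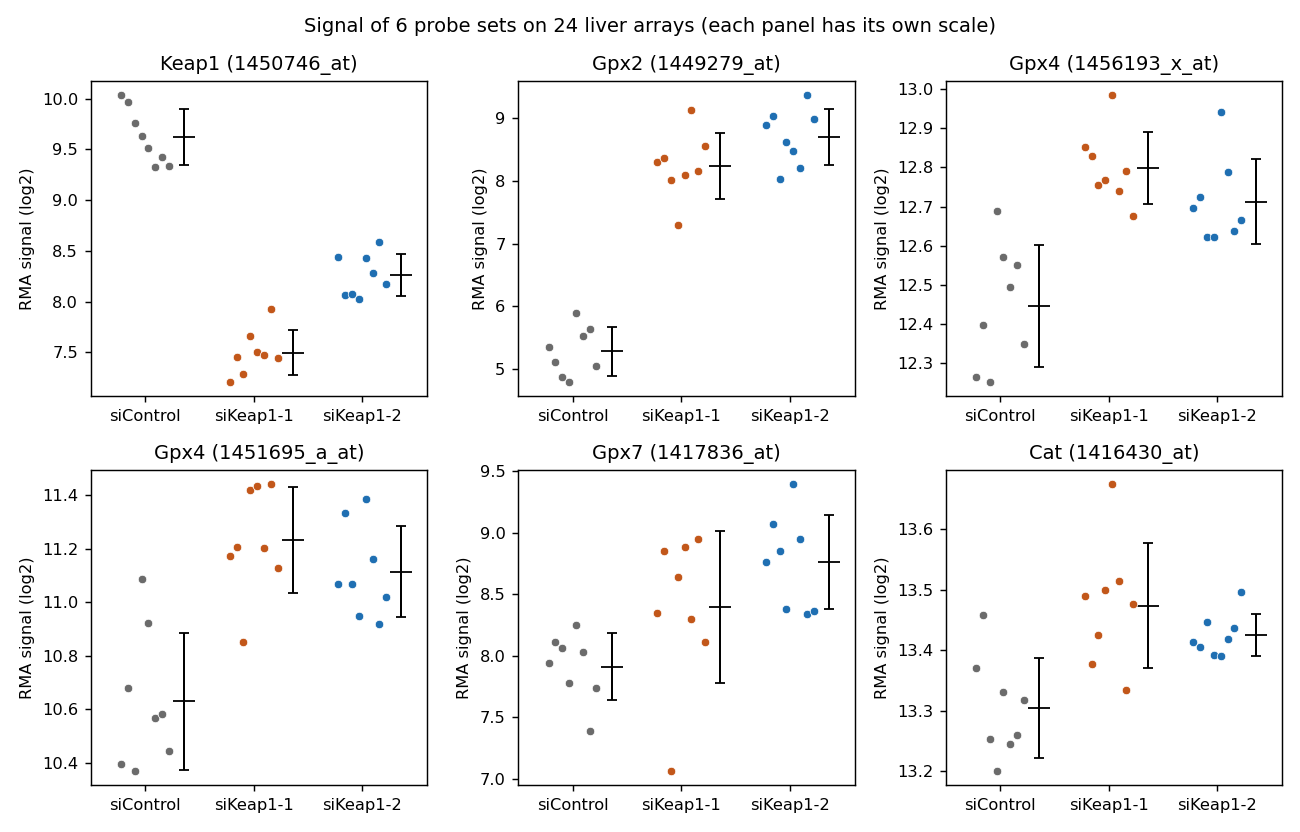
Signal (log2, vertical axis, a scale of its own in each panel) of Keap1 and of the 5 member probe sets that passed the test in at least 1 comparison, with 1 point per mouse in the order of the replicate numbers and the mean with SD beside the points (n = 8 per group). Keap1 and Gpx2 separate the controls from both siRNAs without overlap, Gpx7 does so for siKeap1-2, and Gpx4 and Cat overlap with the controls.

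Gpx4 reduces lipid hydroperoxides within membranes and is the peroxidase that guards cells against ferroptosis. The gene lies on chromosome 10 (80047166 to 80056439) and is read by 2 probe sets. On the brighter, 1456193_x_at, siControl ran from 12.25 over a median of 12.45 to 12.69, siKeap1-1 from 12.68 over 12.78 to 12.99 and siKeap1-2 from 12.62 over 12.68 to 12.94. All 8 livers of each siKeap1 group lay above the control mean, 7 and 4 of them above the highest control. The difference was 0.35 (standard error 0.07, 1.28-fold, adjusted p = 0.00114) with siKeap1-1 and 0.27 (1.20-fold, adjusted p = 0.0163) with siKeap1-2. An _x_at probe set may share probes with other transcripts, so that the second probe set bears on the same question with other probes.

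On 1451695_a_at the medians were 10.57 with siControl, 11.20 with siKeap1-1 and 11.07 with siKeap1-2, within ranges of 10.37 to 11.09, 10.85 to 11.44 and 10.92 to 11.39. Again all 8 livers of each group lay above the control mean, 7 and 3 of them above the highest control. The difference was 0.60 (standard error 0.10, 1.52-fold, adjusted p = 0.000482) and 0.48 (1.40-fold, adjusted p = 0.00573). Around the group means both Gpx4 probe sets moved together over the 24 arrays (Pearson r 0.761, permutation p = 6e-05; Spearman rho 0.743, p = 0.00019; adjusted over 19 pairs of probe sets of 1 gene 0.00057 and 0.00165; r 0.642 without the 2 farthest arrays).

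The rise of Gpx4 with siKeap1-1 passed the threshold under each of 12 other settings and in each of 24 fits without 1 array, between 0.27 and 0.50 on 1456193_x_at and between 0.51 and 0.75 on 1451695_a_at. With siKeap1-2 neither probe set passed with 18S as a covariate (0.35, adjusted p = 0.0701, and 0.46, adjusted p = 0.193), and 1456193_x_at did not against siControl replicates 4 to 8 alone (0.18, adjusted p = 0.108). Within siControl, the mean of 1456193_x_at was 12.30 on replicates 1 to 3 and 12.53 on replicates 4 to 8.

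Gpx7, the peroxidase of the endoplasmic reticulum that passes oxidizing equivalents to protein disulfide isomerase, is read by 1417836_at from a gene on chromosome 4 (108400217 to 108406713). The signal ran from 7.39 over a median of 7.99 to 8.25 with siControl, from 7.07 over 8.49 to 8.95 with siKeap1-1 and from 8.34 over 8.81 to 9.40 with siKeap1-2. Every liver of siKeap1-2 lay above the highest control. With siKeap1-1, 6 of 8 did so and replicate 3 lay below the lowest control. The difference was 0.85 (standard error 0.21, 1.8-fold, adjusted p = 0.0151) with siKeap1-2 and 0.48 (95% interval 0.05 to 0.91, adjusted p = 0.161) with siKeap1-1. The siRNAs themselves differed by -0.37 (95% interval -0.80 to 0.06, adjusted p = 0.616), so that a difference between them was not shown.

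Among the fits that left out 1 array, a single liver decided the call of Gpx7 with siKeap1-1. Without replicate 3 of that group the difference was 0.67 (adjusted p = 0.00913), and leaving out any other array gave 0.40 to 0.53 with no call. The same array was the lowest of its group for Gpx1, Gpx3, the Gpx4 probe set 1451695_a_at, Sod1 1440222_at and Sod2 1417194_at, and the highest for Sod1 1435304_at. With siKeap1-2 the call was lost with 18S as a covariate (0.59, adjusted p = 0.507) and against siControl replicates 1 to 3 alone (0.73, adjusted p = 0.339), but not against replicates 4 to 8 alone (0.93, adjusted p = 0.021).

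Gpx1, the cytosolic and mitochondrial peroxidase that dominates in hepatocytes, was read by 1460671_at at 14.03 to 14.21 with siControl, 14.05 to 14.19 with siKeap1-1 and 14.08 to 14.20 with siKeap1-2. These levels overlapped throughout. The differences were 0.01 (95% interval -0.08 to 0.09, adjusted p = 0.954) and 0.03 (-0.06 to 0.11, adjusted p = 0.786). The probe set is brighter than 99.6% of all, with a mean of 14.12 beside 15.21 for the brightest signal on any array. Whether saturation flattens a rise there was not tested.

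Gpx3 is secreted into plasma, where most of it comes from the kidney. Its probe set 1449106_at ran from 9.06 over a median of 9.76 to 10.38 with siControl, from 9.36 over 9.81 to 10.16 with siKeap1-1 and from 9.27 over 9.65 to 10.001 with siKeap1-2. It varied more within the groups than Gpx1, with an SD of 0.38 in siControl against 0.07. The differences of 0.10 (95% interval -0.21 to 0.40, adjusted p = 0.764) and -0.06 (-0.37 to 0.25, adjusted p = 0.866) correspond to intervals of the fold of 0.864 to 1.32 for siKeap1-1, and of 0.775 to 1.19 for siKeap1-2.

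Catalase breaks down hydrogen peroxide in peroxisomes and is abundant in liver. The gene lies on chromosome 2 (103453904 to 103485153), and only 1 of its 2 probe sets was called. On 1416429_a_at, the brighter, the group means were 14.13, 14.17 and 14.17, with differences of 0.04 (adjusted p = 0.711) and 0.04 (adjusted p = 0.718). This probe set is brighter than 99.6% of all, and as for Gpx1, whether saturation flattens a rise there was not tested. On 1416430_at siControl ran from 13.20 over a median of 13.29 to 13.46, siKeap1-1 from 13.33 over 13.48 to 13.67 and siKeap1-2 from 13.39 over 13.42 to 13.50.

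On this second probe set all 8 livers of each siKeap1 group lay above the control mean, 5 and 1 of them above the highest control. The difference was 0.17 (standard error 0.05, 1.12-fold, adjusted p = 0.0342) with siKeap1-1 and 0.12 (adjusted p = 0.166) with siKeap1-2. With siKeap1-1 its 95% interval of 0.065 to 0.273 overlapped that of the brighter probe set, -0.065 to 0.141. The call rests on many single arrays: it was lost in 10 of the 24 fits that left out 1 array (adjusted p 0.0517 to 0.0789), with 18S as a covariate (0.10, adjusted p = 0.526) and against siControl replicates 1 to 3 alone (0.11, adjusted p = 0.449). Around the group means both Cat probe sets moved together (Pearson r 0.815, permutation p = 0.00015; Spearman rho 0.609, p = 0.0047; adjusted over 19 pairs 0.00095 and 0.0223; r 0.612 without the 2 farthest arrays), and the mean of both differed by 0.10 with siKeap1-1 (adjusted p = 0.153).

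**Figure D3:**
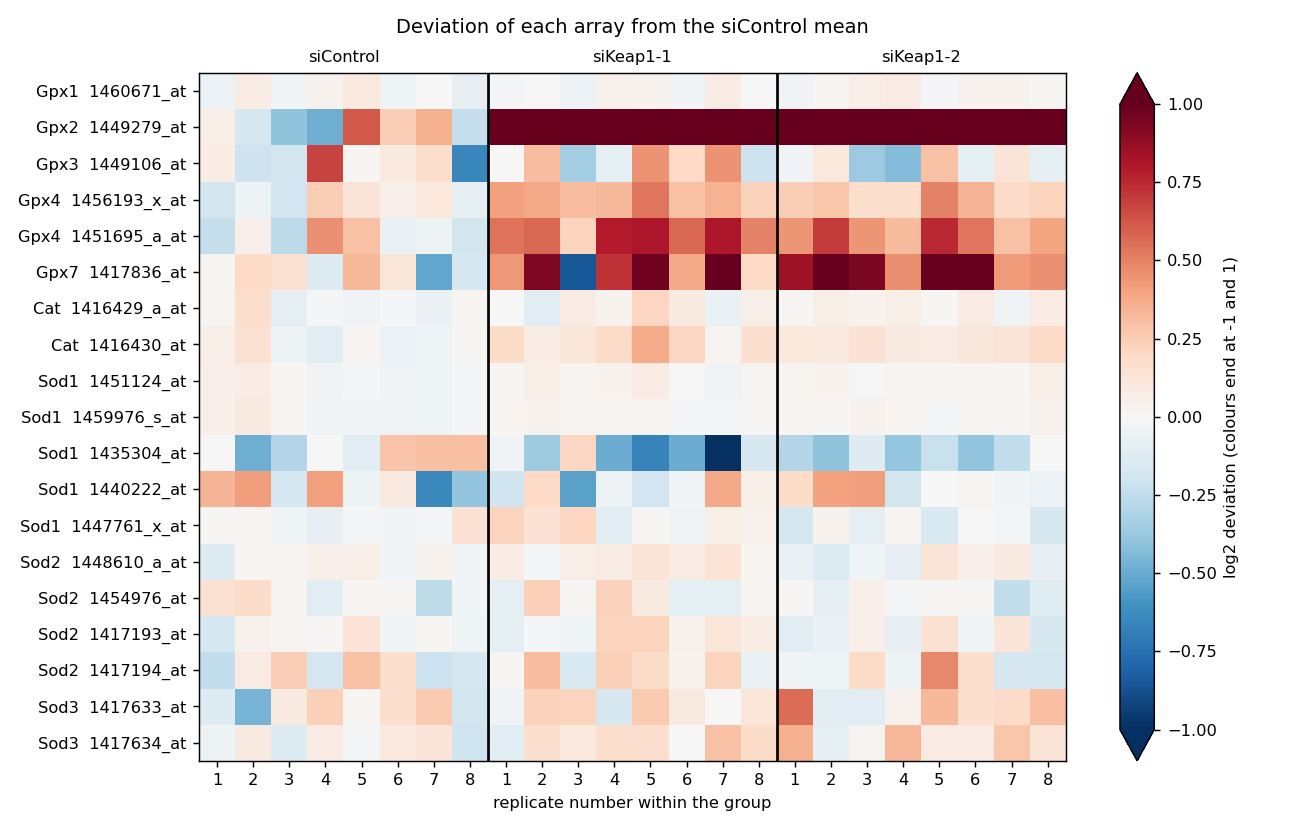
Deviation of each array from the siControl mean (log2, blue lower and red higher, colours ending at -1 and 1) for the 19 probe sets, in columns of 8 replicates per group. Gpx2 is red beyond the scale on all treated arrays, Gpx4 is red on all of them in lighter shades, Gpx7 is red on 8 of 8 with siKeap1-2 and 7 of 8 with siKeap1-1, where replicate 3 is blue, and the bright probe sets of Gpx1, Cat and Sod1 stay pale on all arrays.

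The superoxide dismutases were read by 11 probe sets, of which 0 were called in either direction with either siRNA at an adjusted p of 0.05 in limma. At an unadjusted p under 0.05, 1 was lower with siKeap1-1 (Sod1) and 1 was higher with siKeap1-2 (Sod3), beside 23% and 20.5% of all probe sets. Sod1, the copper and zinc enzyme of the cytosol (chromosome 16, 90220762 to 90226333), had 5 probe sets at very different signals, from a mean of 14.84 down to 2.65. Levels were not compared between these probe sets.

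On the brightest Sod1 probe sets no difference passed the test. On 1451124_at the groups ran from 14.78 to 14.90, from 14.79 to 14.90 and from 14.83 to 14.88, and the differences were 0.03 (95% interval -0.05 to 0.11) and 0.02 (-0.06 to 0.10). On 1459976_s_at they were 0.01 and 0.02. Both moved together around the group means (Pearson r 0.876, permutation p = 1e-05; Spearman rho 0.837, p = 4e-05; adjusted over 19 pairs 0.00019 and 0.00076; r 0.841 without the 2 farthest arrays), the first p being the smallest that the permutations can give. Both are brighter than 99.9% of all probe sets, and as for Gpx1, whether saturation flattens a change there was not tested.

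Another Sod1 probe set, 1435304_at, had lower means in both siKeap1 groups. It ran from 8.14 over a median of 8.62 to 8.93 with siControl, from 7.63 over 8.20 to 8.83 with siKeap1-1 and from 8.22 over 8.35 to 8.62 with siKeap1-2. The groups overlapped, and the differences were -0.38 (95% interval -0.66 to -0.09, adjusted p = 0.089) and -0.26 (-0.54 to 0.02, adjusted p = 0.292). In siControl it read 8.36 on replicates 1 to 3 and 8.78 on replicates 4 to 8. With siKeap1-1 it passed without siControl replicate 2 (-0.45, adjusted p = 0.0357), without siKeap1-1 replicate 3 (-0.46, adjusted p = 0.0245), against siControl replicates 4 to 8 alone (-0.53, adjusted p = 0.0214) and with the first residual component as a covariate (-0.38, adjusted p = 0.0234), whereas it was -0.115 against siControl replicates 1 to 3 alone (adjusted p = 0.803) and 0.04 with 18S as a covariate (adjusted p = 0.946). Its deviations went against those of 1440222_at (Pearson r -0.527, permutation p = 0.0151, adjusted 0.0477; Spearman rho -0.407, p = 0.0696, adjusted 0.189; r -0.337 without the 2 farthest arrays).

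The other Sod1 probe sets, 1440222_at and 1447761_x_at, differed from siControl by -0.05 and 0.07 in the siKeap1-1 livers and by 0.09 and -0.07 in the siKeap1-2 livers. The dimmer of them, 1447761_x_at, was, besides Gpx2, the member with an unadjusted p under 0.05 between the siRNAs (0.14 higher with siKeap1-1, adjusted p = 0.427 in limma). At a mean signal of 2.65 it is brighter than only 3.30% of all probe sets.

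Sod2, the manganese enzyme of mitochondria (chromosome 17, 13007839 to 13018119), differed by 0.04 to 0.10 with siKeap1-1 and by -0.05 to 0.05 with siKeap1-2 over its 4 probe sets. On the brightest, 1448610_a_at, the groups ran from 13.12 to 13.31, from 13.24 to 13.39 and from 13.11 to 13.37. The differences were 0.07 (95% interval -0.03 to 0.17, adjusted p = 0.395) and -0.02 (-0.12 to 0.08, adjusted p = 0.877), or folds between 0.982 and 1.13 and between 0.922 and 1.06.

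Sod3, the enzyme of the extracellular matrix (chromosome 5, 52363804 to 52369738), ran from 8.52 over a median of 9.05 to 9.25 with siControl on 1417633_at, from 8.83 over 9.10 to 9.25 with siKeap1-1 and from 8.88 over 9.17 to 9.55 with siKeap1-2. The differences were 0.09 (adjusted p = 0.655) and 0.17 (95% interval -0.04 to 0.39, adjusted p = 0.372). The dimmer 1417634_at gave 0.12 (adjusted p = 0.327) and 0.15 (unadjusted p = 0.0474, adjusted p = 0.237).

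Between siKeap1-1 and siKeap1-2, 0 of the 19 probe sets were called in limma, beside 0.162% of all probe sets, and 2 had an unadjusted p under 0.05 (Gpx2 and the dim Sod1 probe set), beside 9.3% of all. Both comparisons with siControl share their 8 control livers, so that values of the members are given side by side and their likeness was not tested. Since whole liver was measured, fewer cells of a type and less RNA per cell cannot be told apart.

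Among markers of other cells, macrophage, endothelial, bile duct and adipocyte lists held called genes. Sox9, a transcription factor of bile duct cells, rose by 0.87 (adjusted p = 5.82e-05) and 0.96 (adjusted p = 2.7e-05), and it was the only called gene among the 4 measured bile duct markers, whose mean lay between 6.73 and 7.55 on every array. The median difference of these 4 was 0.10 with siKeap1-1 and -0.35 with siKeap1-2, where 2 of them were lower at an unadjusted p under 0.05. Marco, a scavenger receptor of macrophages, rose by 1.49 with siKeap1-2 (adjusted p = 0.0122), and Vsig4, a complement receptor of Kupffer cells, fell by 0.60 with siKeap1-1 (adjusted p = 0.018). In the other comparison Marco differed by 0.69 with siKeap1-1 (adjusted p = 0.251) and Vsig4 by -0.41 with siKeap1-2 (adjusted p = 0.128), and the median difference of the macrophage list was -0.13 and -0.03. The mean of the 7 macrophage markers ran from 10.22 to 11.15 on siControl arrays, from 9.86 to 11 on siKeap1-1 arrays and from 10.08 to 11.32 on siKeap1-2 arrays. Of the 5 endothelial markers only Cdh5 was called, which fell by 0.32 with siKeap1-2 (adjusted p = 0.0401). With siKeap1-1 it differed by -0.045 (adjusted p = 0.829), and the list medians were 0.028 with siKeap1-1 and -0.053 with siKeap1-2. Of the 3 adipocyte markers, all below the median of all probe sets, only Retn was called. It rose by 0.33 with siKeap1-1 (adjusted p = 0.0484) and differed by 0.246 with siKeap1-2 (adjusted p = 0.174). The medians of that list were 0.138 and 0.122. Among all genes, 9.49% and 6.6% were called in either direction. None of the measured erythroid (4), stellate (5), smooth muscle (3) or lymphocyte (3) markers was called in limma, and at an unadjusted p under 0.05 this was 2 genes with siKeap1-1 and 1 with siKeap1-2, beside 24.5% and 21.9% of all genes. The part of these cells in the changes of Gpx2, Gpx4 and Gpx7 was not tested.

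Glutathione, which most of the glutathione peroxidases use up, is made and regenerated by other genes. Among the 5 genes measured for glutathione supply and recycling, 4 rose with siKeap1-1 and 2 with siKeap1-2, beside 4.82% and 2.85% of all genes. Gclc, the catalytic subunit of the first step of glutathione synthesis, rose by 0.97 (adjusted p = 2.34e-05) and 0.68 (adjusted p = 0.00235). Gsr, which regenerates reduced glutathione, rose by 0.57 (adjusted p = 1.6e-05) and 0.32 (adjusted p = 0.00928). Gss, the enzyme of the second step, rose by 0.55 with siKeap1-1 (adjusted p = 0.00576) and differed by 0.34 with siKeap1-2 (adjusted p = 0.103). The fourth was Gclm, the modifier subunit, which is named here after its values were seen.

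The counts that follow are to be read beside the 9.49% of all genes called with siKeap1-1 and the 6.6% with siKeap1-2. Of 3 measured peroxiredoxins, which are thiol-based peroxidases, 0 were called with either siRNA in limma (0 and 1 at an unadjusted p under 0.05). Of 6 other genes of the peroxidase family and of copper supply to Sod1, Atox1 rose, by 0.21 (adjusted p = 0.00111) and 0.17 (adjusted p = 0.0123), and 0 others were called. Atox1 is a copper chaperone. Of 9 measured oxidases that form hydrogen peroxide, Acox2, which acts on branched fatty acids and bile acid precursors, rose by 0.57 (adjusted p = 0.000115) and 0.47 (adjusted p = 0.00167). Hao1, the glycolate oxidase of liver peroxisomes, fell by 0.265 with siKeap1-1 (adjusted p = 0.0248) and by 0.27 with siKeap1-2 (adjusted p = 0.0298), and Uox, urate oxidase, fell by 0.21 with siKeap1-1 (adjusted p = 0.0409). Among the 12 genes measured for peroxisome biogenesis, Pex3 rose by 0.37 with siKeap1-1 (adjusted p = 0.0287) and Pex6 fell by 0.405 with siKeap1-2 (adjusted p = 0.0227).

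Since 4 of the members are selenoproteins, the other selenoproteins and the genes that make and insert selenocysteine were counted as well. Of 17 other selenoproteins, 2 rose and 1 fell with siKeap1-1, and 1 rose with siKeap1-2. Txnrd1, the cytosolic thioredoxin reductase, rose by 0.53 (adjusted p = 6.17e-07) and 0.37 (adjusted p = 0.000217). Selenof, a protein of the endoplasmic reticulum, rose by 0.16 with siKeap1-1 (adjusted p = 0.0282), and Msrb1, a methionine sulfoxide reductase, fell by 0.17 with siKeap1-1 (adjusted p = 0.02). Of 8 genes of selenocysteine synthesis and insertion, Scly, which releases selenium from selenocysteine, fell by 0.30 with siKeap1-1 (adjusted p = 0.0154), and Sepsecs, which completes selenocysteine on its tRNA, fell by 0.17 with siKeap1-2 (adjusted p = 0.0384). Called in either direction were thus 3 and 1 of the 17 and 1 and 1 of the 8, beside 9.49% and 6.6% of all genes.

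A common variation of the members within the groups was not shown. Some bright members varied little there, Gpx1 with an SD of 0.04 to 0.07, and fed and fasted mice were not told apart. Over the 36 pairs of genes, the Pearson r of the deviations from the group means on 24 arrays ran from -0.34 to 0.667 with a median of 0.05. The highest was that of Gpx3 and Gpx4 (Pearson r 0.667, permutation p = 0.0009, adjusted 0.0324; Spearman rho 0.623, p = 0.00178, adjusted 0.0641; r 0.576 without the 2 farthest arrays), and 0 of the 36 passed on both measures.

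The genes most like each member in these deviations were named as a description, over 24 arrays that share their processing and over 11710 genes. For Gpx2 they were Kdf1 (r 0.681), Snhg11 (0.663) and Arl2bp (0.655), and no other member had so low a highest r. For Gpx4 they were Fkbp9 (0.852), Tbc1d22a (0.844) and Dpep1 (0.824), and for Gpx7 Nit1 (0.88), 2310039H08Rik (0.861) and Cisd1 (0.859). Cat went with Calr (0.806), Mgst1 (0.801) and Acbd5 (0.776), Gpx1 with Abca6 (0.821), Mdfic (0.81) and Tmbim4 (0.804), and Gpx3 with Ccdc3 (0.82), Mfge8 (0.816) and Htra3 (0.809). The nearest genes of the dismutases were Zfp266, Lamp2 and Ube2w for Sod1 (0.774 to 0.737), Ranbp1, Smarce1 and Snx5 for Sod2 (0.785 to 0.751) and Postn, Tgfb1i1 and Oxct1 for Sod3 (0.808 to 0.784). Of these genes, 3 for each of the 9 members, Snhg11 and Kdf1 were called against siControl in limma with both siRNAs. Tbc1d22a and Postn were called with siKeap1-2 only. Among all genes, 9.49% were called with siKeap1-1 and 6.6% with siKeap1-2 in either direction. A link of these calls to the members was not tested. Snhg11 rose by 1.37 with siKeap1-1 (adjusted p = 3.97e-06) and 1.34 with siKeap1-2 (adjusted p = 9.05e-06). Kdf1 rose by 0.27 (adjusted p = 0.0149) and 0.92 (adjusted p = 2.6e-09). Tbc1d22a, second nearest to Gpx4, went the other way than Gpx4 with -0.075 and -0.364 (adjusted p = 0.631 and 0.00634). Postn, nearest to Sod3, differed by 0.438 and 0.54 (adjusted p = 0.0922 and 0.046).

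**Figure D4:**
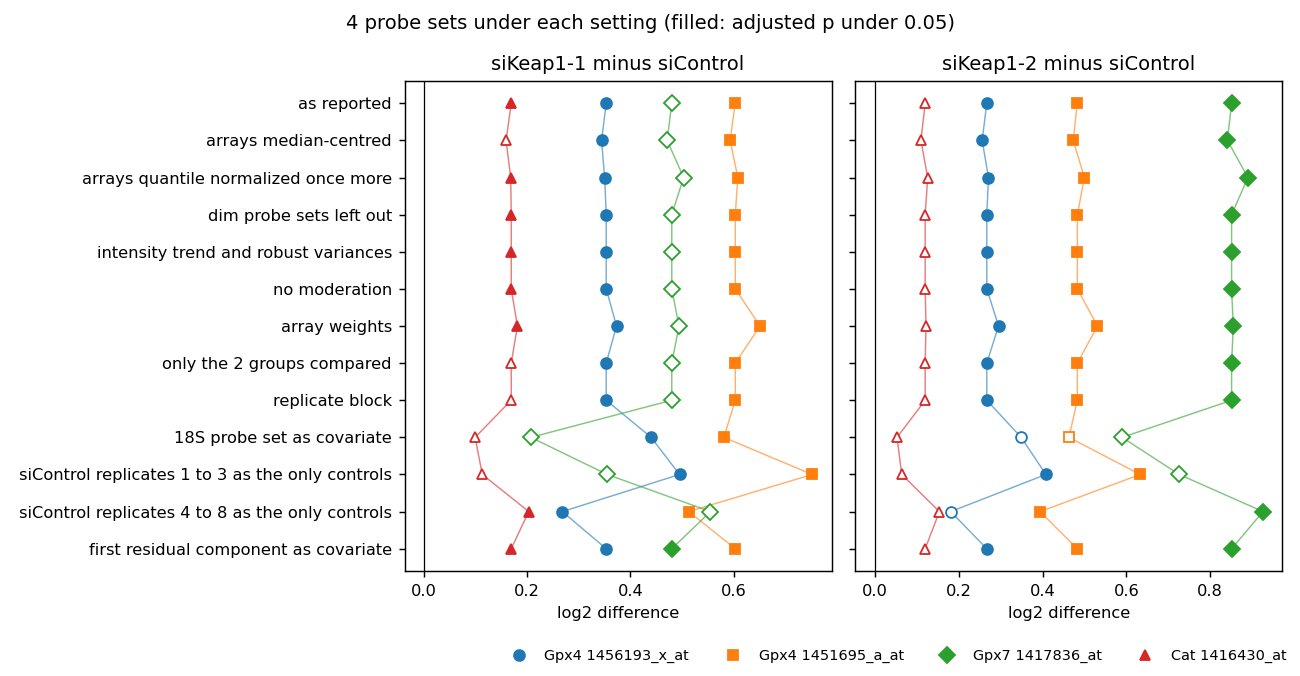
Difference from siControl (log2, horizontal axis) of both Gpx4 probe sets, Gpx7 and the Cat probe set 1416430_at as reported and under 12 other settings, with filled points for an adjusted p under 0.05. The Gpx4 points stay filled in all rows with siKeap1-1, and the rows on 18S and on part of the siControl arrays are those in which most points shift and open, Gpx7 with siKeap1-2 moving between 0.59 and 0.93.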

How the data were processed

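Liver RNA of 24 mice, 8 per siRNA, was measured on Affymetrix whole genome arrays, and groups follow the treatment named in the labels. The authors deposited log2 values made with RMA, which corrects background, normalizes quantiles over the arrays and summarizes the probes of a set. Its version: not given in the sources used here. Such quantile normalization makes the arrays alike in distribution before the probes are summarized, so that changes are relative to the bulk of the array. The medians of the deposited values still ran from 5.84 to 5.96 over the arrays. Arrays give no counts, and their number limits the precision.

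Of 45101 probe sets, 64 manufacturer controls were left out of the tests. The platform annotation names 1 gene for 34945 of the 45037 remaining, several for 932 and none for 9160, and the values were tested without a filter on dim probe sets. Group means were compared with limma 3.58.1 in R 4.3.3 (lmFit, contrasts.fit and eBayes in a single fit of the 3 groups), Benjamini-Hochberg adjustment ran over the 45037 probe sets, and an adjusted p under 0.05 was called. In counts by gene, each gene is represented by its brightest probe set (highest mean of the 24 arrays). Correlations were taken on deviations from the group means, with 100000 permutations within the groups. The fit was tested on simulated data. Promoter sequences and gene positions are from RefSeq (GRCm38.p6). No protein sequence was used here.

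The members and the gene lists were chosen with earlier results of these data known. Named are all member probe sets, Keap1, up to 3 called genes of each other list with the largest difference, and the 3 genes nearest to each member. Some other genes of the lists are not reported here. Nothing in the labels says how cages were spread over the groups. Alternatives covered scaling, dim probe sets, variance estimation, the choice of arrays, a block for the replicate number, covariates and thresholds, and the use of siControl replicates 4 to 8 alone was added after seeing the data. The replicate numbers were checked for pairing, which was not settled, and the fits as reported did not pair the mice.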

Additional observations from a re-analysis of the deposited data

Results flagged for a closer look

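In 5 of the 63 combinations of a probe set and a group, 1 mouse stood apart from the other 7 by more than Dixon's 95% limit for 8 values, where chance gives about 1 in 20. For Gpx7, replicate 3 of siKeap1-1 was the lowest at 7.069, the next being 8.115. Among the fits that left out 1 array, Gpx7 was called in that group only without this liver, as described above. For Cat (1416429_a_at), replicate 2 of siControl was the highest at 14.309 (next 14.163). For Sod2 (1448610_a_at), replicate 1 of siControl was the lowest at 13.118 (next 13.218). For the dim Sod1 probe set 1447761_x_at, replicate 8 of siControl was the highest at 2.791 (next 2.665), and for the dimmer Keap1 probe set 1450747_at, replicate 3 of siKeap1-2 was the lowest at 4.636 (next 4.932).

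The difference between the 2 siRNAs passed the test for Keap1 (1450746_at), with a log2 difference of -0.764 between siKeap1-1 and siKeap1-2 in limma (adjusted p = 0.0022), and for no member probe set.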

How the results depend on the processing

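Of 2259 values of single probe sets under other settings, 2220 kept their direction and side of the threshold or were not called in both, 33 lost their call, 6 gained one and 0 called values changed sign, and 56 values that were not called changed sign. The counts of member probe sets and genes with siKeap1-1 were 1 and 1 with a fold over 2 and an unadjusted p under 0.01, and those with siKeap1-2 were 1 and 1 with this rule and again 1 and 1 with 18S as a covariate. Leaving out 1 array gave 3 to 6 probe sets and 2 to 3 genes with siKeap1-1, 4 to 4 probe sets and 3 to 3 genes with siKeap1-2, and 0 to 0 of both between the siRNAs. With no array left out, 8.99%, 6.1% and 0.162% of all probe sets were called in these comparisons. Over all probe sets, 1324 and 303 were called with 18S as a covariate and 1540 and 358 against siControl replicates 1 to 3 alone, beside 4049 and 2748 as reported. Of those called with siKeap1-2, 81.2% and 81% were higher in these settings against 51.6%. Against replicates 4 to 8 alone, 4467 and 4303 were called. The cause was not tested.

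With the replicate number as a block, 3 and 4 member probe sets were called with siKeap1-1 and siKeap1-2, all higher. Of all probe sets, 4.42% and 2.85% were called higher in this setting. Pairs of the same number correlated between -0.171 and 0.28 in their deviations, and 2, 5 and 2 of 8 pairs passed 0.1 in the 3 pairings of groups. For siControl and siKeap1-2 the median was 0.131, beside -0.014 for pairs of other numbers. These correlations cannot settle whether arrays of the same number share a structure, and no pairing was used in the fits as reported. The probe set lost with siKeap1-1 is Cat 1416430_at (0.17, adjusted p = 0.0606 in limma), which was also lost with median-centred arrays (0.16, adjusted p = 0.0779) and with only the groups compared in the fit (adjusted p = 0.0961). Gpx7 with siKeap1-1 was called with the first residual component as a covariate (0.48, adjusted p = 0.0324).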
